A study of Homo sapiens with 12 samples.

Results

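The 10 cancer-associated long noncoding RNAs described here were taken from the deposited table by gene symbol: MALAT1, NEAT1, H19, MEG3, PVT1, HOTAIR, HOTTIP, PCA3, MIR205HG and MIR17HG. All 10 had a row among the 58302 genes of the table. RNA-sequencing of 3 established human prostate cell lines was analysed, with 4 libraries each of BPH-1, DU145 and PC3. BPH-1 is labelled as a benign prostate line, and DU145 and PC3 are prostate cancer (PCa) lines that grow without androgen. All 3 lines are labelled wild type, carry no treatment in their labels, and were grown in DMEM with fetal bovine serum and antibiotics. Each group is 1 line, so a line and its disease state cannot be told apart, and no label says that the 4 libraries of a line came from separate cultures; the p-values below measure only the spread between these libraries. In bulk RNA, fewer cells with a transcript and less of it per cell cannot be told apart. The study sequenced the lines to find chloride channel genes that differ between benign and cancerous prostate cells.

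Long noncoding RNAs are transcripts without a long open reading frame that act as RNA or as the precursor of smaller RNAs. MALAT1 and NEAT1 are abundant nuclear RNAs of neighbouring genes, the first held in nuclear speckles and the second the scaffold of paraspeckles. H19 and MEG3 are imprinted genes that are expressed from the maternal allele. MIR205HG and MIR17HG are host transcripts of microRNAs, HOTAIR and HOTTIP arise within the HOXC and HOXA clusters and are known for binding chromatin-modifying complexes, PVT1 is a neighbour of MYC, and PCA3 is a prostate-restricted RNA that is measured in urine to detect PCa.

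Levels are given as FPKM, reads scaled by gene length and by the depth of the library, a unit read from the values. The steps between low FPKM values gave depths of 12950665 to 16309559 reads per library and the number of reads behind each value. A gene with at most 3 reads in a library was treated as not detected there, a limit that covers counting error only. The line labels were checked against marker genes. CTNNA1, the gene of alpha-catenin, stood at 12.3 FPKM or more in every BPH-1 and DU145 library and at 0.0367 to 0.0719 in PC3. The epithelial keratins KRT8, KRT18 and KRT19 were at 14.7 or more in every library. EPCAM and CDH1, which also mark epithelium, were at most 0.573 and 0.297 FPKM in DU145, against means of 60.8 and 28.4 in BPH-1, and KLK3, the gene of prostate-specific antigen, was at 0 in all 12 libraries.

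Differences between lines are differences in mean log2(FPKM + 1), which understates the change of genes with low FPKM, and a gene was called at a Benjamini-Hochberg adjusted p under 0.05 in limma over all genes tested. A gene was tested where at least 4 libraries reached 10 reads at the median depth. Of the 10 long noncoding RNAs, 9 were tested in PC3 against BPH-1 and 7 were called (6 lower in PC3 and 1 higher), beside 67.6% of the 16408 genes tested (40.4% lower, 27.1% higher). In DU145 against BPH-1, 9 were tested and 8 called (6 lower in DU145 and 2 higher), beside 62.7% of 17016 genes (32.4% lower, 30.3% higher). In PC3 against DU145, 6 were tested and 4 called (3 lower in PC3 and 1 higher), beside 48.3% of 16420 genes (28.4% lower, 20% higher). The libraries of both lines did not overlap for 7 RNAs in PC3 against BPH-1 (64.4% of all genes tested), 8 in DU145 against BPH-1 (59.5%) and 3 in PC3 against DU145 (46.5%). Of all genes tested, 67.6%, 62.7% and 48.3% were called in these comparisons, so these counts are not a result about long noncoding RNAs. Against BPH-1, MEG3, MIR205HG and MIR17HG (in both lines), H19 (in PC3) and HOTTIP (in DU145) passed the filter only through BPH-1, where they were high, and so had to differ. HOTAIR, with 10 reads in only 2 BPH-1 libraries, passed the filter only through the cancer line, DU145 or PC3, in each comparison with BPH-1. Between PC3 and DU145 the same held for HOTTIP through PC3 and for H19 through DU145. The 2 comparisons with BPH-1 share the BPH-1 libraries. The median difference over all genes was -0.13 in PC3 against BPH-1, and between -0.28 and -0.01 when the libraries were rescaled or corrected for GC content, so differences against BPH-1 in PC3 are to be read against that shift.

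**Figure D1:**
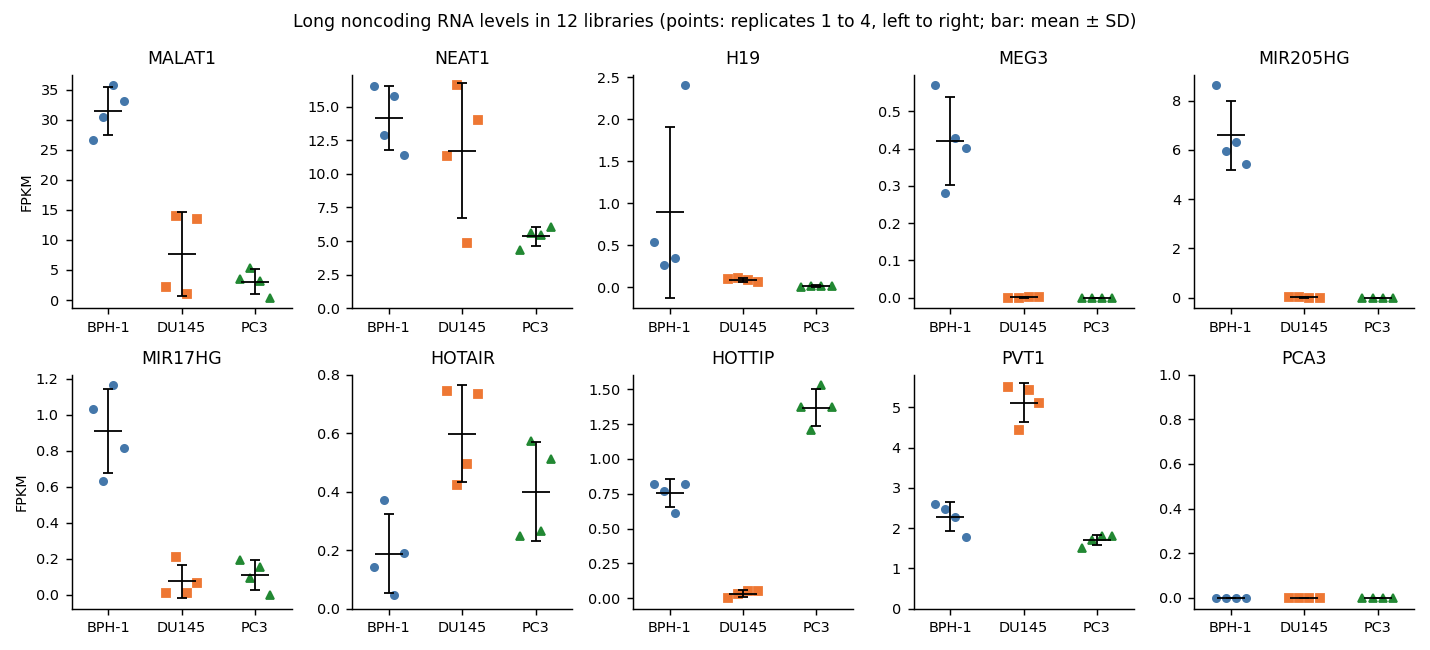
FPKM of each of the 10 long noncoding RNAs (y axis, own scale in each panel) in the 4 libraries of BPH-1, DU145 and PC3 (x axis); points are libraries, black bars the mean ± SD. MIR205HG, MEG3 and MIR17HG were high only in BPH-1, HOTTIP was lowest in DU145 and highest in PC3, PVT1 was highest in DU145, and PCA3 stood at 0 throughout.

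More than 3 reads were found in all 4 libraries for 8 of the 10 RNAs in BPH-1, 5 in DU145 and 5 in PC3. Over all 58302 genes, 15201 had at least 10 reads in every library of BPH-1, 14831 in DU145 and 13899 in PC3. The counts of the 10 RNAs are a description and were not tested. PCA3 was detected in no library, MEG3 in no library of DU145 or PC3, and MIR205HG in no library of PC3.

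**Figure D2:**
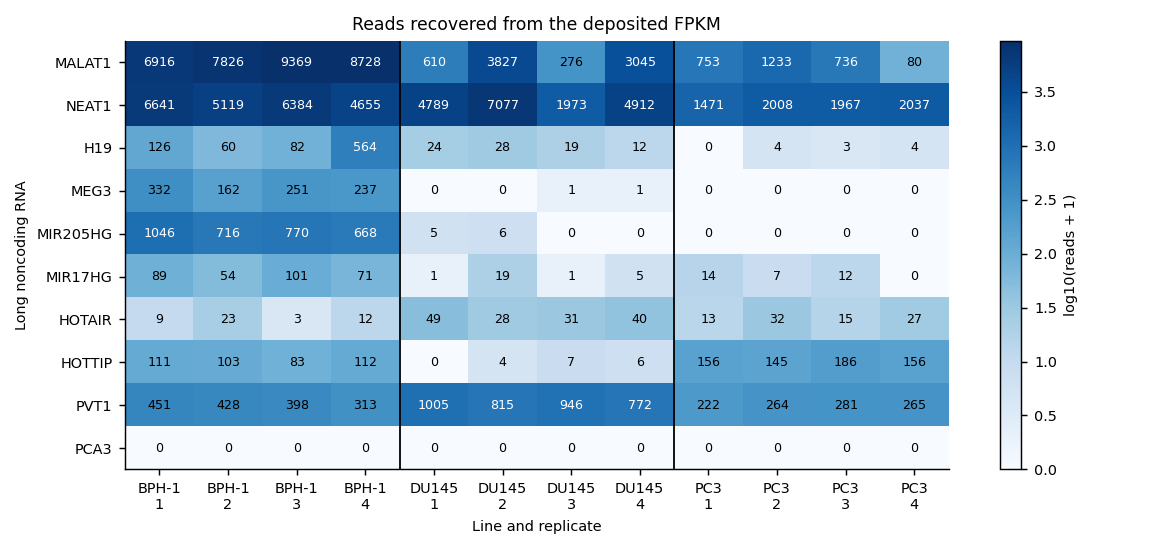
Reads of each long noncoding RNA (rows) in each library (columns, grouped by line), recovered from the deposited FPKM; the colour is log10(reads + 1). Rows of MEG3 and MIR205HG hold 162 to 1046 reads per library in BPH-1 and at most 6 in a library of the cancer lines.

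MicroRNAs act through their seed, the bases from position 2 to position 8, which pair with messenger RNAs. Of the 10 genes, 3 are hosts of the microRNAs printed here, whose mature sequences were taken from RefSeq (GRCh38.p14) to show what each host RNA carries; the seed is in capitals. The libraries measured the long host RNAs and not the mature microRNAs. MIR205HG carries miR-205 and H19 carries miR-675:
hsa-miR-205-5p: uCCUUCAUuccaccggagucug
hsa-miR-675-5p: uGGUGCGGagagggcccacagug

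MIR17HG carries the 6 microRNAs of the miR-17-92 cluster, with 4 different seeds among them. The arms known to act most are printed in genomic order:
hsa-miR-17-5p: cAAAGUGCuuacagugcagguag
hsa-miR-18a-5p: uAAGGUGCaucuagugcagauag
hsa-miR-19a-3p: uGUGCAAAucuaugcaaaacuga
hsa-miR-20a-5p: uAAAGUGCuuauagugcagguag
hsa-miR-19b-3p: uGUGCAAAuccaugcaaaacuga
hsa-miR-92a-3p: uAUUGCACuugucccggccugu

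The seed of miR-17 and miR-20a is the same, and so is that of miR-19a and miR-19b, while miR-18a and miR-92a each have a seed of their own. All 8 mature sequences lie inside the deposited loci of their hosts.

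MIR205HG, at chr1:209428820-209432838 on the plus strand (GRCh38, as for all loci below; strands from GENCODE 29), is a spliced host RNA that held 668 to 1046 reads in each BPH-1 library and few or none elsewhere. miR-205, which it carries, is known in basal epithelial cells of the prostate and represses ZEB1 and ZEB2. MIR205HG stood at 8.62, 5.96, 6.3 and 5.44 FPKM in BPH-1 replicates 1 to 4. It stood at 0.0392, 0.0468, 0 and 0 FPKM in DU145, which is 5, 6, 0 and 0 reads, and at 0 reads in all 4 PC3 libraries. Every BPH-1 library was above every library of the cancer lines. The mean in BPH-1 was 6.58 ± 1.41 FPKM (SD, n = 4), at least 231-fold higher than in PC3 when 3 reads are allowed to each PC3 library, and the difference in log2(FPKM + 1) was -2.91 ± 0.13 (SE; limma, adjusted p = 1.63e-07). Against DU145 the ratio of means was 306 and the difference -2.88 ± 0.15 (SE; limma, adjusted p = 4.99e-07). MIR205HG passed the filter only through BPH-1, where it was high, so these calls are no independent sign of a difference. The row of the MIR205 hairpin itself, which shares its bases with the host, had a mean of 7.79 FPKM in BPH-1, 0.28 in DU145 and 0 in PC3. It spans only 110 bases, so these values rest on few reads and are no separate measurement.

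TP63, the basal transcription factor known to activate MIR205HG, had the same order. It stood at 13.5, 13.8, 13.3 and 11.2 FPKM in BPH-1 and at most 0.0542 in DU145 and 0.0234 in PC3. The genes most like MIR205HG over the 12 libraries were CCND2 (Pearson r = 0.999), OLR1 (0.998) and FILIP1L (0.998), of 17670 genes compared on log2(FPKM + 1). Here and below, genes that have only a clone name were passed over. Such an r is set by the contrast of BPH-1 with the other 2 lines. LAMB3, which lies 182031 bases from MIR205HG and encodes a laminin chain, went another way, with a mean of 98.1 FPKM in BPH-1, 294 in DU145 and 44 in PC3.

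Within DU145, MIR205HG had its reads in replicates 1 and 2 and none in replicates 3 and 4. The basal markers moved with it in these libraries. KRT5 was at 0.342, 0.499, 0.024 and 0 FPKM in DU145 replicates 1 to 4, against a mean of 147 in BPH-1, and KRT14 at 0.275, 0.442, 0.0222 and 0, against 203. UCA1, another long noncoding RNA that was high in BPH-1, was at 0.273, 0.426, 0.0409 and 0.0706. HOTTIP and MEG3, also lower in DU145 than in BPH-1, did not share this order. HOTTIP had 0, 4, 7 and 6 reads and MEG3 0, 0, 1 and 1 in these DU145 libraries. Among markers of other cell types, PTPRC, of blood cells, was at 1.35 and 1.25 in DU145 replicates 1 and 2 and at 0 in replicates 3 and 4, while BPH-1 stood at 1.15 to 1.54 and PC3 at 0. CD3E, which marks T cells, was at 0 in all 12 libraries. Over the 9 listed markers of blood, endothelial and stromal cells the summed level was 7.24 to 11.8 FPKM in BPH-1, 5.74 to 11.2 in DU145 and 11.4 to 19 in PC3. Of these 9, 4 were tested and called in PC3 against BPH-1 (3 higher, 1 lower), and 1 of 5 tested was called in DU145 (lower). The 8 epithelial markers, TP63 and the basal keratins among them, gave 6 calls in each comparison with BPH-1 (1 higher, 5 lower). Over all genes tested, 67.6% were called in PC3 and 62.7% in DU145 against BPH-1. What part of the 11 MIR205HG reads of DU145 goes with these markers was not tested.

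MIR17HG, at chr13:91347820-91354579 on the plus strand, is the host of a cluster known to drive cell division and to be activated by MYC and E2F factors. It stood at 1.03, 0.632, 1.16 and 0.813 FPKM in BPH-1. It stood at 0.011, 0.208, 0.0116 and 0.0666 FPKM in DU145, which is 1, 19, 1 and 5 reads, and at 0.193, 0.0913, 0.155 and 0 FPKM in PC3, which is 14, 7, 12 and 0 reads. The BPH-1 libraries did not overlap with the others, and DU145 and PC3 overlapped. The difference was -0.78 ± 0.10 in PC3 against BPH-1 (SE; limma, adjusted p = 7.80e-05) and -0.83 ± 0.10 in DU145 against BPH-1 (adjusted p = 6.87e-05). With the trend of log2 FPKM against GC content divided out of each library, the differences shrank to -0.22 (limma, adjusted p = 0.0338) and -0.30 (adjusted p = 0.00262). MIR17HG has the lowest GC content of the 10, 38.1%. It passed the filter only through BPH-1, so its calls against BPH-1 are no independent sign of a difference. Most like MIR17HG were LCA5 (r = 0.99), DNAJC2 (0.986) and PUS7L (0.986).

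E2F1, which activates the cluster and is one of its targets, was higher in both cancer lines, with means of 18.5 FPKM in BPH-1, 39.4 in DU145 and 35 in PC3. Of the 8 listed regulators of the 10 RNAs, 6 of 8 tested were called in PC3 against BPH-1 (2 higher, 4 lower) and 3 of 7 in DU145 against BPH-1 (1 higher, 2 lower), beside 67.6% and 62.7% of all genes. Of 8 known targets of these microRNAs, 7 were called in PC3 (3 higher, 4 lower) and 6 in DU145 (2 higher, 4 lower), beside the same shares of all genes. ZEB1, the target of miR-205, was called higher in both and was low throughout, at 0.0162 to 0.0773 FPKM in BPH-1, 0.0713 to 0.484 in DU145 and 0.0849 to 0.355 in PC3. ZEB2, the other target of miR-205, was not called against BPH-1 in either line, with means of 0.0448 FPKM in BPH-1, 0.0575 in DU145 and 0.0173 in PC3, where every library lay below those of BPH-1. RB1, a target of the miR-17-92 cluster, was lower in both lines, with means of 12.5 FPKM in BPH-1, 1.21 in DU145 and 1.77 in PC3. CDKN1A, a target of miR-17, had a mean of 27.6 FPKM in BPH-1, 26.1 in DU145 and 5.7 in PC3. DICER1, the enzyme that cuts the hairpins, was lower in both cancer lines than in BPH-1, with means of 7.25 FPKM in BPH-1, 0.364 in DU145 and 0.678 in PC3. AGO2, which holds the mature microRNA, was higher in PC3 than in BPH-1 (means 24.6 and 7.88 FPKM; limma, adjusted p = 3.79e-05). Among the 9 listed microRNA-processing genes, 5 were called in PC3 against BPH-1 (2 higher, 3 lower) and 4 in DU145 (2 higher, 2 lower), again beside 67.6% and 62.7% of all genes.

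MALAT1, at chr11:65497762-65506516, and NEAT1, at chr11:65422774-65445540, lie on the plus strand 52222 bases apart and were the most abundant of the 10 by mean FPKM in each line. MALAT1 stood at 26.6, 30.4, 35.7 and 33.1 FPKM in BPH-1. It stood at 2.23, 13.9, 1.06 and 13.4 FPKM in DU145 and at 3.44, 5.33, 3.14 and 0.366 FPKM in PC3. All BPH-1 libraries were above all others, and the DU145 libraries fell into a pair of high and a pair of low values. The difference was -3.18 ± 0.40 in PC3 against BPH-1 (SE; limma, adjusted p = 8.78e-05) and -2.39 ± 0.59 in DU145 against BPH-1 (adjusted p = 0.00561). PC3 and DU145 overlapped, with a difference of -0.79 ± 0.73 (limma, adjusted p = 0.404).

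The spread of MALAT1 within the cancer lines was wide. Its coefficient of variation was 90.9% in DU145, larger than that of 98.7% of the genes with at least 10 reads in every DU145 library, and 66.6% in PC3, larger than that of 97.4% of such genes, against 12.5% in BPH-1. The level moved with a property of the libraries, the slope of log2 FPKM on the GC content of genes. The slope lay between -0.74 and -0.61 log2 units per 10 GC points in BPH-1. In DU145 replicates 1 to 4 it was 0.70, -0.18, 1.06 and -0.0028, and in PC3 -0.02, 0.059, 0.34 and 0.72. The pair of DU145 libraries with low MALAT1, replicates 1 and 3, had the steepest slopes of that line, and so had PC3 replicate 4, which had the least MALAT1. MALAT1 has a GC content of 39.6%. With the GC trend divided out, the difference was -1.70 in PC3 against BPH-1 (limma, adjusted p = 0.0018) and -0.72 in DU145 against BPH-1 (adjusted p = 0.102), so the second was no longer called. The correction also takes out any true difference that follows GC content. Whether the slope arose in the cells or in the preparation of the libraries was not tested.

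NEAT1 differed less. It stood at 16.5, 12.9, 15.8 and 11.4 FPKM in BPH-1, at 11.3, 16.6, 4.9 and 14 FPKM in DU145, and at 4.35, 5.61, 5.43 and 6.03 FPKM in PC3. PC3 lay below every BPH-1 library and below all DU145 libraries except replicate 3, which had the steepest GC slope. The difference in PC3 against BPH-1 was -1.25 ± 0.14 (SE; limma, adjusted p = 5.25e-05), and -0.88 with the GC trend divided out (adjusted p = 0.0024). DU145 and BPH-1 overlapped, with a difference of -0.35 ± 0.31 (limma, adjusted p = 0.354) that became 0.11 with the GC correction. In PC3 against DU145 the difference was -0.90 ± 0.31 (limma, adjusted p = 0.0401), and it was no longer called after leaving out any 1 library except DU145 replicate 3, without which it was -1.23 (adjusted p = 0.000537). MALAT1 was 1.61 to 2.9 times as high as NEAT1 on the FPKM scale in BPH-1 libraries and 0.0607 to 0.958 times as high in the 8 cancer libraries. The lowest ratios were in DU145 replicates 1 and 3 and PC3 replicate 4, which had the steepest GC slopes of their lines. Whether a ratio lies below 1 depends on the gene lengths used. With overlapping exons merged, the means of MALAT1 and NEAT1 were 14.6 and 13.4 FPKM in DU145 and 5.87 and 6.14 in PC3.

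**Figure D3:**
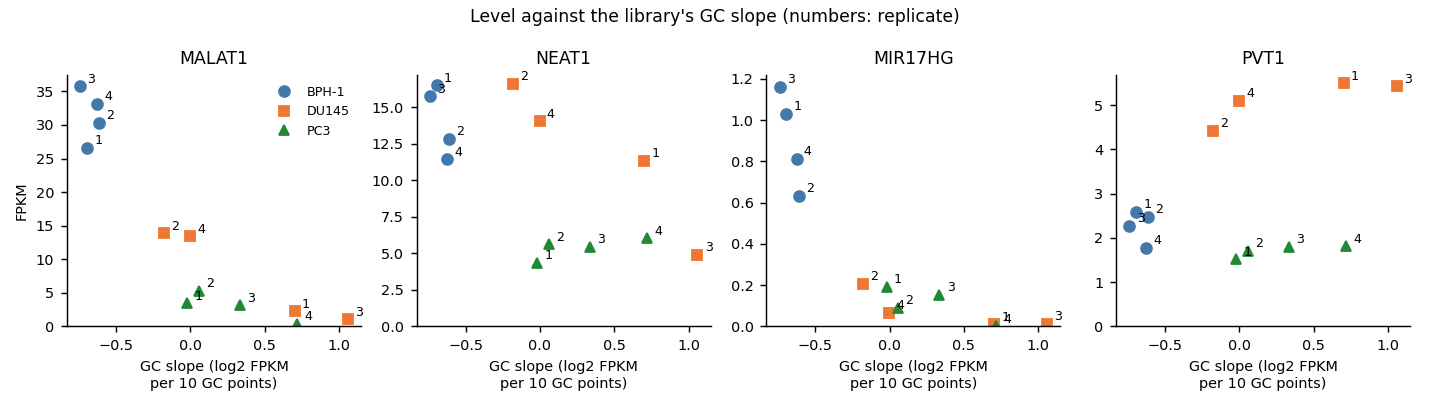
FPKM of MALAT1, NEAT1, MIR17HG and PVT1 (y axes) against the slope of log2 FPKM on gene GC content of the same library (x axis); numbers are replicates, colours and shapes are lines. DU145 replicates 1 and 3, with slopes of 0.70 and 1.06, had 2.23 and 1.06 FPKM of MALAT1, and replicates 2 and 4, with slopes near 0, had 13.9 and 13.4, while PVT1 in DU145 stayed between 4.43 and 5.49.

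Of the 11 listed proteins of paraspeckles, 4 were called lower and 0 higher in PC3 against BPH-1, and 5 lower and 1 higher in DU145 against BPH-1, beside 67.6% and 62.7% of all genes called and a median difference of -0.059 and -0.32 in the list and of -0.13 and -0.026 over all genes. The direction of the list turned with the GC correction, which gave 5 higher and 1 lower in PC3 and 4 higher and 1 lower in DU145. Over all genes the correction gave 5104 higher and 5315 lower of 16408 in PC3, and 5666 and 4953 of 17016 in DU145. HNRNPK and HNRNPH3, RNA-binding proteins called lower in PC3 as deposited (-0.56 and -0.97), were called higher with the correction (0.59 and 0.56). NONO and SFPQ bind NEAT1 and are needed for paraspeckles. NONO had means of 37.2 FPKM in BPH-1, 20.5 in DU145 and 35.7 in PC3, and was called lower in DU145 than in either other line. SFPQ was not called against BPH-1 in either line, with differences of 0.17 in PC3 (limma, adjusted p = 0.45) and -0.32 in DU145 (adjusted p = 0.147), but was higher in both with the GC correction (1.11 and 0.78). NUDT21, a factor of 3′ end formation that sets the length of NEAT1, had means of 45.1, 14.4 and 9.68 FPKM in BPH-1, DU145 and PC3, and with the GC correction its difference was -0.39 in PC3 and 0.33 in DU145. The nearby coding gene LTBP3 was called higher in both cancer lines, the opposite direction to MALAT1, with means of 4.07 FPKM in BPH-1, 12 in DU145 and 8.34 in PC3. FRMD8, next to NEAT1, was not called in any comparison without the GC correction. The genes most like MALAT1 were IQGAP1 (r = 0.994), ZNF225 (0.993) and SLC44A1 (0.991), and those most like NEAT1 were MORF4L1 (0.955), ANKRD27 (0.954) and ATXN2 (0.953). IQGAP1 shared the wide spread of MALAT1 within the cancer lines, at 0.906 to 19.5 FPKM in DU145 and 0.724 to 7.92 in PC3. Whether these r values follow the GC slope of the libraries was not tested.

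H19, at chr11:1995163-2001470 on the minus strand, stood at 0.544, 0.262, 0.352 and 2.41 FPKM in BPH-1. It stood at 0.0987, 0.114, 0.082 and 0.0596 FPKM in DU145 and at 0, 0.0194, 0.0144 and 0.0206 FPKM in PC3, the latter 0 to 4 reads. The 3 lines did not overlap, and BPH-1 replicate 4 stood far above the other BPH-1 libraries. The difference was -0.77 ± 0.27 in PC3 against BPH-1 (SE; limma, adjusted p = 0.0282) and -0.67 ± 0.26 in DU145 against BPH-1 (adjusted p = 0.0479). Without BPH-1 replicate 4 the differences fell to -0.45 (limma, adjusted p = 0.000557) and -0.34 (adjusted p = 0.00349), and the BPH-1 mean from 0.891 to 0.386 FPKM, 28.4-fold that of PC3 and 4.35-fold that of DU145. Both calls were lost in other settings: leaving out any 1 PC3 library gave adjusted p-values of 0.0526 to 0.0572, and leaving out BPH-1 replicate 1 or any 1 DU145 library gave 0.0643 to 0.0849. The small difference of PC3 against DU145, -0.10 ± 0.03 (limma, adjusted p = 0.0245), rests on 11 reads in PC3 and 83 in DU145 and was lost without PC3 replicate 1 (adjusted p = 0.0686), 2 (0.055) or 3 (0.0509) or DU145 replicate 1 (0.0501). In both comparisons with PC3, H19 passed the filter only through the other line, so those calls are no independent sign of a difference.

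IGF2, the growth factor gene that shares the imprinting control region of H19 and is expressed from the paternal allele, lies 127641 bases away. It stood at 1.6, 1.65, 0.795 and 0.843 FPKM in BPH-1, at 0.465 to 0.587 in DU145 and at 0.156 to 0.332 in PC3. The order of the lines was that of H19, with no overlap between lines, and all 3 differences were called. BPH-1 replicate 4, with the highest H19, did not have the highest IGF2. MRPL23, the coding gene on the other side, was also called lower in both cancer lines, with means of 4.21 FPKM in BPH-1, 1.46 in DU145 and 1.66 in PC3. The genes most like H19 were HOXA-AS2 (r = 0.953), ZNF114 (0.941) and PLA2G4F (0.92).

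MEG3, at chr14:100779410-100861031 on the plus strand, is known as a growth-restraining RNA that is often silenced in tumours. It stood at 0.57, 0.281, 0.428 and 0.402 FPKM in BPH-1, from 162 to 332 reads per library. DU145 had 0, 0, 1 and 1 reads and PC3 had none. The mean in BPH-1, 0.42 ± 0.119 FPKM (SD, n = 4), was at least 70.7-fold higher than in PC3 with 3 reads allowed to each PC3 library. From reads summed over each line, BPH-1 had 487 times the MEG3 of DU145 (95% counting interval 135 to 4030). The difference in log2(FPKM + 1) was -0.50 ± 0.06 against both lines (SE; limma, adjusted p = 5.42e-05 in PC3 and 7.04e-05 in DU145), and the ratio between PC3 and DU145 cannot be given. MEG3 passed the filter only through BPH-1, so these calls are no independent sign of a difference.

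Other noncoding RNAs of the same imprinted locus shared the contrast. MEG8, 33738 bases from MEG3, stood at 0.0507, 0.00931, 0.0732 and 0.0683 FPKM in BPH-1 and at 0 in all 8 cancer libraries, and MEG9 at 0.224, 0.139, 0.274 and 0.204 FPKM against 0. These rest on 44 and 49 reads over the 4 BPH-1 libraries. The coding gene DLK1, which is expressed from the paternal allele of the locus, was at 0 in all 12 libraries, and RTL1 had at most 0.0585 FPKM in any. The genes most like MEG3 were LINC01582 (r = 0.994), FLRT2 (0.992) and MIR646HG (0.99), whose means were at least 0.395 FPKM in BPH-1 and at most 0.145 in either cancer line.

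**Figure D4:**
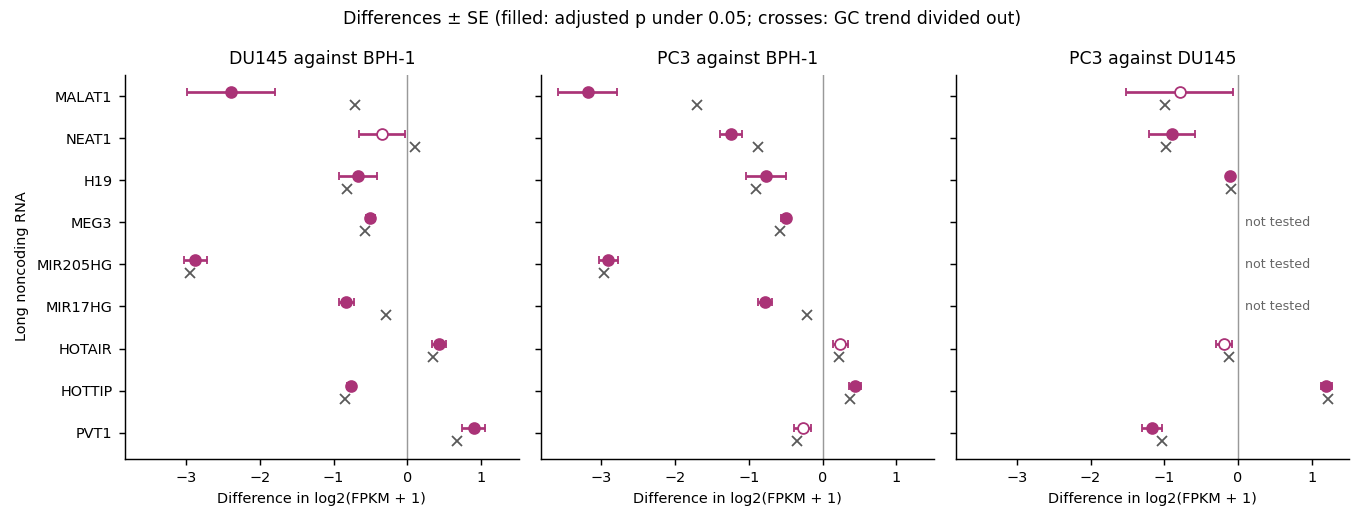
Difference in mean log2(FPKM + 1) between lines (x axis) for the 9 long noncoding RNAs with reads (y axis); circles are the deposited values ± SE, filled where the adjusted p was under 0.05, and crosses the values with the GC trend divided out. MALAT1 moved from -3.18 to -1.70 in PC3 and from -2.39 to -0.72 in DU145, while MIR205HG stayed near its value, at -2.91 and -2.97 in PC3.

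HOTTIP, at chr7:27198575-27207259 on the plus strand, lies head to head with HOXA13 at the end of the HOXA cluster and is known to bring WDR5 and KMT2A complexes to the HOXA genes. It was the one RNA of the 10 that was called on opposite sides of BPH-1 in the cancer lines with the values as deposited; with the GC correction PVT1 was called so too. It stood at 0.82, 0.769, 0.609 and 0.818 FPKM in BPH-1. It stood at 0, 0.0279, 0.0517 and 0.0509 FPKM in DU145, which is 0, 4, 7 and 6 reads, and at 1.37, 1.21, 1.53 and 1.37 FPKM in PC3. The 3 lines did not overlap. The difference was 0.43 ± 0.08 in PC3 against BPH-1 (SE; limma, adjusted p = 0.00127), -0.76 ± 0.06 in DU145 against BPH-1 (adjusted p = 4.60e-06) and 1.20 ± 0.07 in PC3 against DU145 (adjusted p = 2.10e-06). The mean in PC3 was 41.9 times that of DU145. In both comparisons with DU145, HOTTIP passed the filter only through the other line, so those calls are no independent sign of a difference.

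The HOXA genes beside HOTTIP were described with the same libraries. HOXA13 stood at 4, 4.62, 4.15 and 5.64 FPKM in BPH-1, at 0.188, 0.301, 0.0879 and 0.366 in DU145 and at 12.3, 12, 11.1 and 6.08 in PC3, the same order as HOTTIP with no overlap between lines. HOXA11 had means of 4.12, 1.66 and 8.28 FPKM in BPH-1, DU145 and PC3. HOXA9 was low in DU145 as well, with a mean of 0.0963 FPKM against 14.5 in BPH-1 and 15.2 in PC3, and was not called between PC3 and BPH-1. HOXA10, between HOXA9 and HOXA11, was the exception, with means of 1.37, 1.6 and 3.7 FPKM and no call in DU145 against BPH-1 (difference 0.12; limma, adjusted p = 0.561). HOTTIP and HOXA13 share 1532 bases on opposite strands, and the use of strand in counting is not given in the sources used here, so reads in that stretch cannot be told apart. WDR5, the HOTTIP partner, had means of 26.6 FPKM in BPH-1, 38.7 in DU145 and 17.7 in PC3, the reverse order of HOTTIP as deposited. With the GC correction the WDR5 difference from BPH-1 was 0.019 in DU145 (limma, adjusted p = 0.896) and -0.89 in PC3 (adjusted p = 0.000203). KMT2A had means of 8.25, 1.76 and 2.86 FPKM. Most like HOTTIP were LINC02582 (r = 0.99), TSPYL5 (0.988) and SLC37A2 (0.988).

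HOTAIR, at chr12:53962308-53974956 on the minus strand, lies between HOXC11 and HOXC12 and is known for binding Polycomb complex 2. It was low throughout, at 0.144, 0.371, 0.0476 and 0.189 FPKM in BPH-1, which is 9, 23, 3 and 12 reads. It stood at 0.745, 0.423, 0.495 and 0.735 FPKM in DU145, which is 49, 28, 31 and 40 reads, and at 0.247, 0.575, 0.266 and 0.514 FPKM in PC3, which is 13, 32, 15 and 27 reads. DU145 lay above every BPH-1 library, with a difference of 0.43 ± 0.10 (SE; limma, adjusted p = 0.00381), and PC3 overlapped with both. The difference of PC3 against BPH-1 was 0.24 ± 0.10 (limma, adjusted p = 0.0645) and was called without BPH-1 replicate 2 (adjusted p = 0.021) or PC3 replicate 1 (0.04) and under median-of-ratios and upper-quartile scaling of the libraries. Against BPH-1, HOTAIR passed the filter only through DU145 or PC3, where its mean was higher. Its calls against BPH-1 are thus no independent sign of a difference. PC3 against DU145 gave -0.19 ± 0.11 (limma, adjusted p = 0.176).

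The HOXC genes around HOTAIR did not follow 1 pattern. HOXC10 had means of 0.29 FPKM in BPH-1, 3.74 in DU145 and 0.566 in PC3, and HOXC9 of 0.0812, 3.82 and 0.171, both highest in DU145 like HOTAIR. HOXC11, which overlaps HOTAIR by 1831 bases on the other strand, was equal in BPH-1 and DU145 within its spread (0.379 ± 0.144 and 0.362 ± 0.107 FPKM; SD, n = 4) and lower in PC3 (0.0986 ± 0.0191). HOXC13 was highest in PC3, with a mean of 5.25 FPKM, and HOXC12 was at 0 in all 12 libraries. Of the 11 listed chromatin proteins that bind HOTAIR or HOTTIP, 10 were called in PC3 against BPH-1 (3 higher, 7 lower) and 6 in DU145 (1 higher, 5 lower), beside 67.6% and 62.7% of all genes. With the GC correction 9 (4 higher, 5 lower) and 8 (3 higher, 5 lower) were called, and EZH2 and EED were no longer lower in PC3 (0.048 and -0.044). The correction gave 10419 calls of 16408 genes in PC3 and 10619 of 17016 in DU145. SUZ12, the Polycomb subunit that binds RNA, had means of 12 FPKM in BPH-1, 1.54 in DU145 and 1.46 in PC3, and EZH2, the enzyme of the complex, 9.17, 8.43 and 6.43. Most like HOTAIR over the libraries were TMEM198B (r = 0.916), CD72 (0.91) and MRPL45P2 (0.908).

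The promoters of 7 of the 10 RNAs were matched in RefSeq (GRCh38.p14), as 250 bases before to 50 after a start. The number of CpG dinucleotides, where DNA methylation can act, was compared over 35116 promoters of this length, whose median was 14 (quartiles 4 and 28). MIR17HG had 42, HOTTIP 41 and the first MALAT1 entry 37, while H19 had 6, both PCA3 entries 3 and MIR205HG 1. The promoter with the fewest CpG, of MIR205HG, and 1 of those with the most, of HOTTIP, are shown with each CpG in capitals. Fewer CpG than in MIR205HG, which was low in both cancer lines, were found in 3.96% of the promoters, and fewer than in HOTTIP, which was low in DU145, in 93.3%. The MIR205HG sequence is chr1:209428570-209428869 and the HOTTIP sequence chr7:27200171-27200470, both on the plus strand:
MIR205HG: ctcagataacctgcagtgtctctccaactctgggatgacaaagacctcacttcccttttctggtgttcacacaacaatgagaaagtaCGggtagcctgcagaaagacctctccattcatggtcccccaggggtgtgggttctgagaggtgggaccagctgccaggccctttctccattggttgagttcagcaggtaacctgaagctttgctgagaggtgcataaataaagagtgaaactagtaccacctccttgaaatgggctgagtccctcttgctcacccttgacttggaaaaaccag
HOTTIP: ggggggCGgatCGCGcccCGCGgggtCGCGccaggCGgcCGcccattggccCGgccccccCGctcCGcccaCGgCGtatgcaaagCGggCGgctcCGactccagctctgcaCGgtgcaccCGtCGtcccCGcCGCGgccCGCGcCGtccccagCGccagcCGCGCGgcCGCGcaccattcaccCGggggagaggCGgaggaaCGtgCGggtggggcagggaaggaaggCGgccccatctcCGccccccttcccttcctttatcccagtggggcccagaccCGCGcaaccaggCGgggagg

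The TATA motif TATAAA, searched on both strands, was in the second MALAT1 entry and all 3 MEG3 entries and in 11.5% of all promoters. The E-box CACGTG, which MYC can bind, was in none of the 7 and in 7.26% of all promoters. These are matches of letters only.

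PVT1, at chr8:127794533-128101253 on the plus strand, is a long RNA known to be gained together with MYC in many tumours and to sustain MYC protein. It stood at 2.59, 2.48, 2.27 and 1.78 FPKM in BPH-1, at 5.49, 4.43, 5.43 and 5.1 FPKM in DU145 and at 1.52, 1.71, 1.79 and 1.81 FPKM in PC3. All DU145 libraries were above all others. The difference was 0.90 ± 0.15 in DU145 against BPH-1 (SE; limma, adjusted p = 0.000629), a ratio of means of 2.24, and -1.17 ± 0.14 in PC3 against DU145 (adjusted p = 0.000106), 2.99-fold lower in PC3. PC3 and BPH-1 overlapped, with a difference of -0.27 ± 0.12 (limma, adjusted p = 0.0611) that was called without BPH-1 replicate 4 (-0.35; adjusted p = 0.0262), with the GC correction and at equal summed FPKM. Among the RNAs with at least 10 reads in every library of a line, PVT1 was the most even in both cancer lines, with a coefficient of variation of 9.57% in DU145 and 7.88% in PC3.

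MYC lies 53098 bases from PVT1 and did not follow it. MYC stood at 20.3, 1.17, 25.5 and 0.985 FPKM in BPH-1, at 1.13, 0.975, 27 and 20.5 in DU145 and at 1.29, 30.3, 1.57 and 1.42 in PC3. Each line held libraries near 1 FPKM and libraries above 20, and no difference between lines was called, with adjusted p-values of 0.642, 0.991 and 0.682 in limma. PVT1 did not split in this way. Most like PVT1 were CECR7 (r = 0.991), STAG3L4 (0.989) and KIFC3 (0.985), all highest in DU145.

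**Figure D5:**
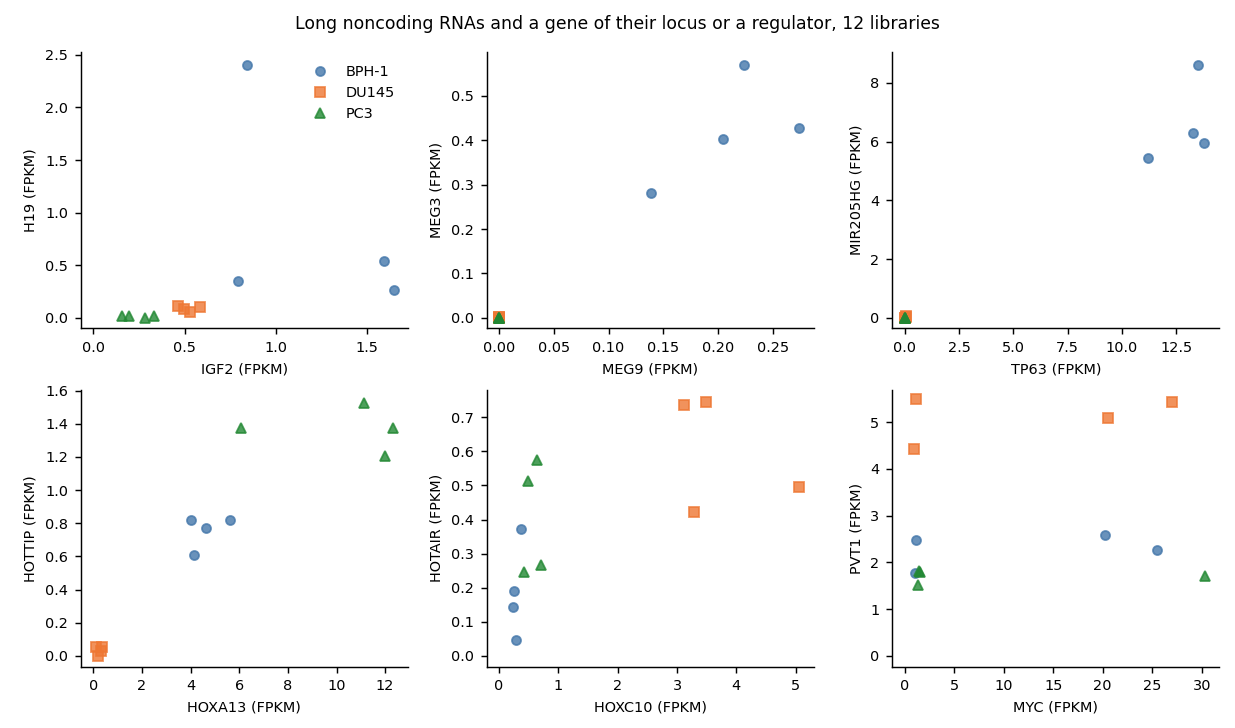
FPKM of 6 long noncoding RNAs (y axes) against FPKM of a gene of the same locus (IGF2, MEG9, HOXA13, HOXC10, MYC) or a known activator (TP63 for MIR205HG; x axes) in the 12 libraries, coloured by line. HOTTIP and HOXA13 were lowest in DU145 and highest in PC3, MEG3 and MEG9 were above 0.1 FPKM in BPH-1 only, and MYC split into values near 1 and above 20 in each line while PVT1 did not.

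PCA3, deposited at chr9:76764436-76787569 on the plus strand, had 0 reads in all 12 libraries. GENCODE 29 gives the gene a wider locus, chr9:76691980-76863307. A count of 0 allows up to 3 reads per library, so PCA3 was not detected at this depth. PRUNE2, the coding gene in whose intron PCA3 lies on the opposite strand, was also low, at 0.0155 to 0.0529 FPKM in BPH-1, 0.00932 to 0.0889 in DU145 and 0.0326 to 0.1 in PC3. Of the 5 luminal prostate markers, 3 were tested and called in PC3 against BPH-1 (2 higher, 1 lower). In DU145 against BPH-1, 1 was tested, not called as deposited and called higher with the GC correction. Of all genes tested, 67.6% and 62.7% were called as deposited in these comparisons. KLK2, another prostate kallikrein gene, had a value above 0 in 1 library.

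Levels per length were compared within each line. In BPH-1 the order was MALAT1 (31.4 ± 3.93 FPKM; SD, n = 4), NEAT1 (14.1 ± 2.4), MIR205HG (6.58 ± 1.41), PVT1 (2.28 ± 0.361), MIR17HG (0.91 ± 0.235), H19 (0.891 ± 1.02), HOTTIP (0.754 ± 0.0994), MEG3 (0.42 ± 0.119) and HOTAIR (0.188 ± 0.136). MIR17HG, H19 and HOTTIP overlapped, and so did MEG3 and HOTAIR. H19, with its 1 high library, overlapped every RNA from PVT1 to HOTAIR. In DU145 it was NEAT1 (11.7 ± 5.04), MALAT1 (7.65 ± 6.96), PVT1 (5.11 ± 0.489), HOTAIR (0.599 ± 0.165), H19 (0.0887 ± 0.0235), MIR17HG (0.0744 ± 0.093), HOTTIP (0.0326 ± 0.0244), MIR205HG (0.0215 ± 0.025) and MEG3 (0.000923 ± 0.00107), where NEAT1, MALAT1 and PVT1 all overlapped, and each RNA from H19 to MEG3 overlapped the next. In PC3 it was NEAT1 (5.36 ± 0.714), MALAT1 (3.07 ± 2.04), PVT1 (1.71 ± 0.134), HOTTIP (1.37 ± 0.132), HOTAIR (0.401 ± 0.168), MIR17HG (0.11 ± 0.0844) and H19 (0.0136 ± 0.00946), where MALAT1 overlapped NEAT1, PVT1, HOTTIP and HOTAIR, PVT1 overlapped HOTTIP, and MIR17HG overlapped H19. The length in the deposited FPKM counts overlapping exons of several transcripts. With exons merged, H19 was 5.18 times as high and passed MIR17HG in BPH-1, and MALAT1 passed NEAT1 in DU145.

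Among 30 other long noncoding RNAs of cancer, 29 were in the table and 22 were tested in PC3 against BPH-1, where 16 were called (5 higher, 11 lower), beside 67.6% of all genes. In DU145 against BPH-1, 16 of 22 were called (7 higher, 9 lower; 62.7% of all genes), and in PC3 against DU145, 13 of 21 (7 higher, 6 lower; 48.3%). UCA1, known from bladder cancer, had means of 45.1 FPKM in BPH-1, 0.203 in DU145 and 0.0115 in PC3, the pattern of MIR205HG and MEG3. GAS5, the host of small nucleolar RNAs, had means of 3.68, 34.3 and 1.17 FPKM, highest in DU145 like PVT1. MIR31HG, the host of miR-31, had means of 2.08, 1.56 and 12.7 FPKM, highest in PC3 like HOTTIP. NORAD, a widely expressed cytoplasmic RNA, had means of 155, 23.8 and 64.5 FPKM, and its difference in PC3 against BPH-1 went from -1.37 to -0.023 with the GC correction (limma, adjusted p = 0.883). Outside the rule for named genes, and chosen after their values were seen, are 2 prostate RNAs. SCHLAP1 was at 0.484 to 0.813 FPKM in PC3 and at 0 in all BPH-1 and DU145 libraries. PCGEM1 was at 0 in all 12 libraries.

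Of the 10 listed RNAs that lack a poly(A) tail or are histone messages, 3 of 6 tested were called in PC3 against BPH-1 (3 higher). In DU145 against BPH-1, 3 of 5 were called (2 higher, 1 lower). The shares of all genes called were 67.6% and 62.7%. HIST1H1C had means of 13.5 FPKM in BPH-1, 459 in DU145 and 17.7 in PC3. RN7SL1, named for its range after its values were seen, ranged from 0.857 to 71.5 FPKM within BPH-1 and from 17.8 to 407 within DU145. MALAT1 and the longer form of NEAT1 lack a regular poly(A) tail too, and whether the capture of such RNAs differed between libraries was not tested.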

How the data were processed

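RNA-sequencing libraries of BPH-1, DU145 and PC3 cells (4 each) were made by the study from TRIzol total RNA with a NEBNext Ultra kit. The authors deposited 1 table of values per gene and library; its header and the study's methods name no unit, and the values were read as FPKM, reads scaled by the authors to gene length and library depth, because low values of a gene stood in steps set by its length. The submitters' processing notes name CASAVA 1.8, HISAT2 2.1.0 and edgeR, with GRCh38 as the build, and give no roles. Lengths, strands and GC content were taken from GENCODE 29. The counter and the use of strand in counting are not given in the sources used here.

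Reads were recovered from the FPKM steps: 95.9163% to 96.7628% of values of up to 30 reads were whole within 0.02 reads. No length could be had for 263 genes, which were left out. Genes with 10 reads at the median depth of 15341001 in at least 4 libraries, and 15 reads in all, were tested on log2(FPKM + 1) with limma 3.58.1 (R 4.3.3), fitted to the 2 lines compared, with Benjamini-Hochberg adjustment over all genes tested. Tables and figures were made in Python 3.11.15 with numpy 2.4.6, pandas 2.3.3, scipy 1.17.1 and matplotlib 3.10.9. In libraries simulated on PC3 against BPH-1, with 200 of 16408 genes changed, 182 of the changed genes were called, 86 of 87 of them among those with 500 reads or more, beside 9 others.

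Named were the 10 RNAs, their neighbours, genes known to make or use them, and otherwise the 3 listed genes with the largest called difference. Also named were the 3 genes most like each RNA over 12 libraries, with genes that have only a clone name passed over. The RNAs and gene lists were chosen with earlier results of these data known. Alternatives were another pseudocount (0.1), other filters, 1 fit over all lines, a replicate block, leaving out each library, 4 scalings (equal summed FPKM, median of ratios, upper quartile, GC trend divided out), voom on recovered reads, exact permutation, a fold limit and merged-exon lengths. Counting intervals and the floor of 3 reads cover counting error only. Some listed genes are not reported here.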

Additional observations from a re-analysis of the deposited data

Results flagged for a closer look

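Of 143 groups of 4 libraries of 1 gene, 7 held a library far from the other 3 by Dixon's criterion, or 4.8951%, and chance gives about 1 in 20. Among the 10 long noncoding RNAs this was H19 in BPH-1 replicate 4, at 2.41 FPKM. Among the listed genes it was MYC in PC3 replicate 2 (30.3 FPKM), LAMB3 in PC3 replicate 4 (75.1 FPKM), HOXC13 in DU145 replicate 2 (2.48 FPKM), MRPL23 in DU145 replicate 3 (2.28 FPKM), UCA1 in PC3 replicate 2 (0.0461 FPKM) and RTL1 in PC3 replicate 2 (0 FPKM). The last 2 rest on a few reads at most.

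The difference from BPH-1 was itself different in the 2 cancer lines for 4 of the 6 RNAs tested, by the limma test of PC3 against DU145, in which BPH-1 drops out and 48.3% of all genes were called. It was 1.20 on the log2(FPKM + 1) scale for HOTTIP, -1.17 for PVT1, -0.90 for NEAT1 and -0.10 for H19, the last on 11 reads in PC3. HOTTIP and H19 passed the filter through 1 line only, and the NEAT1 call was lost without any 1 library other than DU145 replicate 3.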

How the results depend on the processing

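No difference of the 9 tested RNAs changed its direction in a called result, and 421 of their values under the alternatives stayed on the same side of the threshold, while 39 lost it and 8 gained it. With 10 reads required in every library of a comparison, 4 RNAs were tested in each. Of these, 3 were called in PC3 against BPH-1, 3 in DU145 against BPH-1 and 2 in PC3 against DU145. Over all genes, 8439 of 13066, 7722 of 13175 and 5297 of 12864 were then called. With the main filter and an absolute log2 difference over 1 required, 3, 2 and 2 RNAs and 36, 35 and 33 listed genes were called. Without that limit it was 73, 60 and 54 listed genes, as the limit itself removes low genes. Over all genes, 4429 of 16408, 4894 of 17016 and 3177 of 16420 were called with the limit. Leaving out 1 library gave 6 to 8, 7 to 8 and 2 to 4 RNAs and 70 to 75, 57 to 65 and 45 to 53 listed genes. The 2 in PC3 against DU145 came without PC3 replicate 1, 2 or 3 or DU145 replicate 1. Over all genes it gave 10601 to 11320, 9617 to 11458 and 7019 to 8239 calls. The genes tested were then 16692 to 16877, 17361 to 17436 and 16693 to 16911.

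The deviations of same-numbered libraries of different lines had correlations from -0.699 to 0.555. The same number was the best match for PC3 replicate 2 in DU145 (0.555) and PC3 replicate 4 in BPH-1 (0.0902), and another number matched best elsewhere. The numbers thus gave no steady pairing, and whether they mark a shared batch was not tested. With the replicate number as a block, 8, 8 and 3 RNAs and 71, 60 and 43 listed genes were called. Over all genes, 10733 of 16408, 10131 of 17016 and 6746 of 16420 were called with the block. HOTAIR was gained in PC3 against BPH-1 (limma, adjusted p = 0.0106) and H19 lost in PC3 against DU145 (0.0997).

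With no filter, H19 was lost against BPH-1 in PC3 (adjusted p = 0.0733) and DU145 (0.113) and NEAT1 in PC3 against DU145 (0.0756), and with 1 fit over all lines H19 was lost in PC3 against DU145 (0.736). Of the 11085 genes called in PC3 against BPH-1, 4452 were higher and 6633 lower; upper-quartile scaling gave 5349 and 5827, equal summed FPKM 3436 and 7924, and the GC correction 5104 and 5315. In DU145 against BPH-1 the split of 5160 and 5506 became 4131 and 6569 at equal summed FPKM, 5640 and 5080 with upper-quartile scaling and 5666 and 4953 with the GC correction. Low read numbers limit HOTAIR in BPH-1, H19 in PC3 and MIR17HG in the cancer lines.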
